A study of Caenorhabditis elegans with 10 samples.

Results

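The comparison was of young adult *Caenorhabditis elegans* moved to 25°C for 3 hours against animals of the same strains kept at 20°C. It used 6 of the 10 RNA libraries of the series, chosen by their labels: the 2 labelled as heat shock, 1 of the *clk-2* mutant and 1 of wild-type N2, and the 4 libraries of the same strains at 20°C, 2 of *clk-2* and 2 of N2. Of 15106 genes in the table, 13727 had a mean of at least 10 normalized read counts over these 6 libraries and were tested. The study asked which genes act in nonsense-mediated mRNA decay (NMD), and the *clk-2* mutant is temperature sensitive, so animals grown at 20°C were moved to 25°C to inactivate CLK-2. N2 received the same move. The text on the warm treatment stands with all 10 samples, and only those titled heat shock were taken to have had it. The sources differ on the 20°C libraries of the mutant: the methods set its permissive temperature below 20°C, and a figure legend on these data calls 20°C itself permissive.

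In both strains and at both temperatures whole animals were sampled as frozen pellets of synchronized young adults. The labels give the mutant as *clk-2* with no allele. A figure legend of the study names the allele qm37, whereas the columns carry a name that joins parts of qm37 and mn125, both temperature-sensitive alleles, so the allele was not settled. Further, the study's strain list gives its temperature-sensitive *clk-2* strains with an NMD reporter transgene on a ubiquitous promoter (Pdpy-30), which N2 lacks. Each strain had 1 library at 25°C, so a difference between the strains in their response was described and not tested, and the libraries at 20°C are not stated to be separate cultures, so p-values measure the spread between these libraries only. What the animals went through besides temperature, such as the transfer itself or the time of collection, cannot be told apart from it.

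*C. elegans* meets warmth with heat shock factor HSF-1, which switches on small heat shock proteins and HSP70 chaperones that hold or refold damaged proteins. The endoplasmic reticulum has its own response to unfolded proteins, driven by IRE-1, PEK-1 and ATF-6, and mitochondria have another. Warmth also speeds growth and egg production, and the membrane is adjusted by fatty acid desaturases.

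After 3 hours at 25°C, the highest log2 fold changes of all genes tested were those of 3 heat shock genes, *hsp-16.41*, *hsp-16.2* and *hsp-70*, at 4.44, 3.65 and 2.60, and all 3 were higher in both strains. Only *hsp-16.41* passed the test across all genes (limma with strain as a block, Benjamini-Hochberg adjusted p under 0.05, the same sign in both strains), which is 0.00728% of the genes tested, and 0 genes passed it downwards (0%). At an unadjusted p under 0.05 with the same sign in both strains there were 249 genes higher and 430 lower. On the reads recovered from the values, edgeR called 2 genes higher and 0 lower and DESeq2 10 higher and 48 lower. The genes called by DESeq2 included *hsp-16.2*, *hsp-70*, *hsp-17* and *anmt-3* upwards and *asp-13*, *cyp-35A3*, *acdh-2* and *thn-1* downwards. By the looser 2-fold thresholds, a log2 fold change beyond 1 with an unadjusted p under 0.05 and the same sign in both strains, 42 genes were higher (0.306%) and 99 lower (0.721%), and in 41 and 94 of these the 25°C library lay beyond both 20°C libraries in each strain. Of the 42 and 99, 26 and 60 stayed below 50 normalized counts in both groups. These counts depended on single libraries: without N2 replicate 2 at 20°C 134 were higher. With a 25°C library left out, the same-sign rule could not be applied, so no counts are set beside these.

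*hsp-16.41* encodes a small heat shock protein of the alpha-crystallin family. It had 735 normalized counts at 25°C in N2 and 158 in *clk-2*, against 30.2 and 40.6 in N2 and 7.77 and 4.5 in *clk-2* at 20°C. Both 25°C libraries lay above all 4 libraries at 20°C. The level was 20.8 times that at 20°C in N2 and 25.8 times in *clk-2*, where the 20°C libraries held 3 and 7 reads and the 25°C library 54. The log2 fold change over both strains was 4.44 (SE 0.31, limma adjusted p = 0.00676). It passed in 14 of the 16 alternative settings (adjusted p of 1.72e-37 with DESeq2 to 0.255 in limma), and not with a replicate block (limma adjusted p = 0.0865) or without the N2 library at 25°C (0.255).

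*hsp-16.2*, a close relative, had 831 counts at 25°C in N2 and 164 in *clk-2*, against 35.8 and 63.2 in N2 and 25.9 and 10.9 in *clk-2* at 20°C. The groups did not overlap, and the log2 fold change was 3.65 (SE 0.41, limma adjusted p = 0.0996, edgeR adjusted p = 0.0177). The genes stand head to head on chromosome V, *hsp-16.2* on the minus strand (WBcel235, V:1804334-1804957) and *hsp-16.41* on the plus strand (V:1805178-1805875), 220 bases apart. Further *hsp-16* genes are close copies, and since only uniquely mapped reads were counted, reads of these genes could be lost or shared unevenly among the copies.

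*hsp-70*, the heat-inducible cytosolic HSP70 on chromosome I, had 305 counts at 25°C in N2 and 161 in *clk-2*, against 42.8 and 64 in N2 and 18.1 and 32.8 in *clk-2* at 20°C. Again no 20°C library reached a 25°C library. The log2 fold change was 2.60 (SE 0.31, limma adjusted p = 0.0996, edgeR adjusted p = 0.0553, DESeq2 adjusted p = 1.08e-09), 5.72-fold in N2 and 6.32-fold in *clk-2*. *hsp-17*, another small heat shock gene, was higher by a smaller factor, with 525 counts at 25°C in N2 and 697 in *clk-2*, against 295 and 296 in N2 and 308 and 289 in *clk-2* at 20°C (log2 fold change 1.02, SE 0.15, limma adjusted p = 0.142). Its 4 libraries at 20°C were nearly equal and both 25°C libraries were above them.

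The rest of the small heat shock family gave no such values. Of 11 small heat shock genes tested, 3 lay above both 20°C libraries in each strain (*hsp-16.41*, *hsp-16.2* and *hsp-17*), beside 10.8% of all genes tested, and 4 lay below (*hsp-12.2*, *hsp-12.3*, *hsp-25* and *hsp-43*), beside 11.4%. *hsp-25* had 794 counts at 25°C in N2 and 685 in *clk-2*, against 813 and 951 in N2 and 738 and 762 in *clk-2* at 20°C. *hsp-12.3* met the 2-fold thresholds downwards at a low level, with 4.15 counts at 25°C in N2 and 5.85 in *clk-2*, against 31.6 and 18.7 in N2 and 10.4 and 13.5 in *clk-2* at 20°C. In *clk-2* these values rest on 2 reads at 25°C and on 4 and 21 at 20°C.

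*hsp-12.6*, *hsp-12.1* and ZK1128.7 did not separate the temperatures in both strains, and their log2 fold changes were -1.22, 0.18 and -0.41, none past the 2-fold thresholds. *sip-1*, a small heat shock protein of embryos and oocytes, differed in direction between the strains: it had 6381 counts at 25°C in N2 and 6061 in *clk-2*, against 3592 and 3584 in N2 and 6269 and 7317 in *clk-2* at 20°C. The N2 library at 25°C thus stood at about the level that *clk-2* had at either temperature. A second inducible HSP70 gene, F44E5.5, had 19.1 and 5.85 counts in N2 and *clk-2* at 25°C, against 9.82 and 21.1 in N2 and 5.18 and 2.57 in *clk-2* at 20°C, where the temperatures overlapped in N2. F08H9.3 and F44E5.4 were below the filter.

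**Figure D1:**
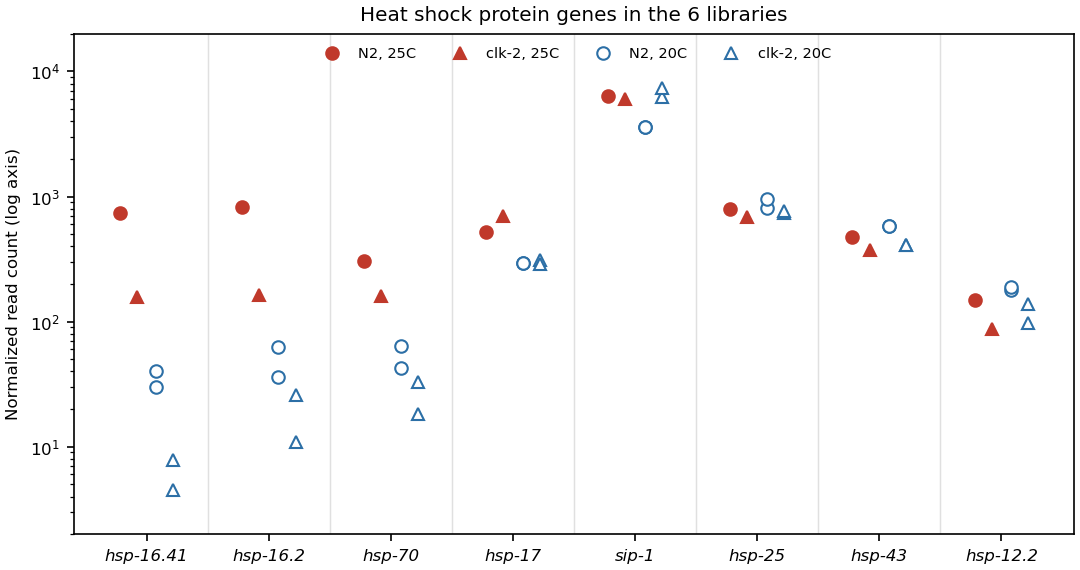
Normalized read counts of 8 heat shock genes on a log axis, 1 point per library, with 25°C in filled red and 20°C in open blue symbols (circles N2, triangles *clk-2*). For *hsp-16.41*, *hsp-16.2*, *hsp-70* and *hsp-17* both red points lie above all 4 blue ones, and for *hsp-25*, *hsp-43* and *hsp-12.2* the red points lie at or below the blue points of their strain.

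Endoplasmic reticulum (ER) chaperones were mostly higher in both strains, by a small amount. Of 15 genes tested, 11 lay above both 20°C libraries in each strain (73.3%, beside 10.8% of all genes) and 0 lay below. The median log2 fold change was 0.29, beside 0.02 over all genes, with medians of 0.22 in N2 and 0.30 in *clk-2*. None passed the 2-fold thresholds or the limma test. With any 1 of the 4 libraries at 20°C left out, 11 to 13 of the 15 lay above and 0 or 1 below, beside 13.7% to 18.5% of all genes above.

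*hsp-4*, the ER form of HSP70 (BiP) and the usual reporter of the unfolded protein response, had 4349 counts at 25°C in N2 and 4170 in *clk-2*, against 2657 and 3058 in N2 and 2627 and 2781 in *clk-2* at 20°C. All 4 libraries at 20°C were below both at 25°C, and the log2 fold change was 0.62 (SE 0.11, limma adjusted p = 0.286). *enpl-1*, the ER form of HSP90, had 8152 counts at 25°C in N2 and 9444 in *clk-2*, against 5774 and 6267 in N2 and 7351 and 6858 in *clk-2* at 20°C (log2 fold change 0.42, SE 0.10). *crt-1* (calreticulin) had 24139 and 28967 counts in N2 and *clk-2* at 25°C, against 17248 and 21024 in N2 and 22352 and 19352 in *clk-2* at 20°C. T14G8.3 and the disulfide isomerase gene *pdi-6* both had log2 fold changes of 0.49.

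The other BiP gene, *hsp-3*, differed less, by 0.19, as did *cnx-1* (calnexin) by 0.19 and *pdi-3* by 0.26. Of the 3 sensors, *atf-6* and *pek-1* lay above both 20°C libraries in each strain (log2 fold changes 0.40 and 0.12) and *ire-1* did so in N2 only (0.07). *xbp-1*, whose RNA is spliced by IRE-1, had 3485 counts at 25°C in N2 and 7196 in *clk-2*, against 2840 and 3557 in N2 and 4885 and 4780 in *clk-2* at 20°C, and so lay above both 20°C libraries in *clk-2* and between them in N2. *pdi-1* was the 1 member below 0 in both strains (-0.09).

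**Figure D2:**
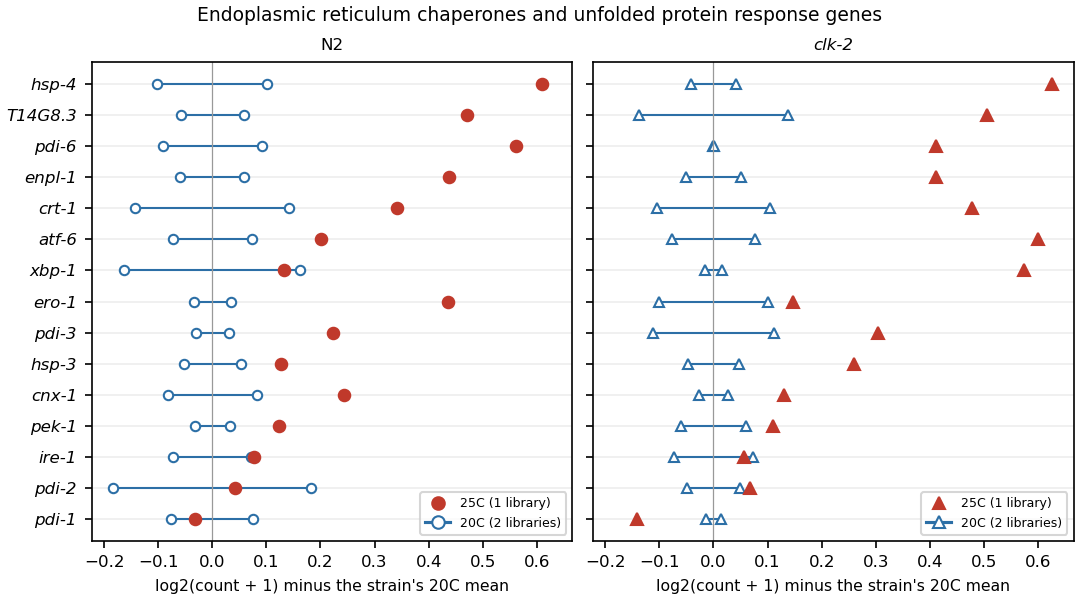
log2(count + 1) of 15 ER chaperone and unfolded protein response genes, less the mean of the strain's own 20°C libraries, in N2 (left) and *clk-2* (right). Filled red symbols are the 1 library at 25°C, open blue symbols joined by a line the 2 libraries at 20°C. The red symbol lies right of both blue ones in both panels for 11 genes, farthest for *hsp-4*.

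Chaperones that are always present, listed as cytosolic, were mostly higher in N2 and about level in *clk-2*. Of 47 tested, including chaperonin (CCT) subunits and DNAJ co-chaperones, 11 lay above both 20°C libraries in each strain (23.4%, beside 10.8%) and 1, *cct-4*, lay below. The median difference was 0.21 in N2, where 40 of 47 were above 0, and 0.00 in *clk-2*, where 24 were. Over all 13727 genes tested, 6927 were above 0 in N2 and 7080 in *clk-2*. *hsp-90* had 34492 counts at 25°C in N2 and 21220 in *clk-2*, against 28750 and 28446 in N2 and 18702 and 23948 in *clk-2* at 20°C. It separated the temperatures in N2 and not in *clk-2*. The count of 11 above in each strain depended on the libraries at 20°C. It was 22 without *clk-2* replicate 2 (46.8%, beside 17.7% of all genes) and 17 without *clk-2* replicate 1. Without N2 replicate 2 it was 11 (23.4%, beside 18.5%), so there the list stood only a little above all genes. With any 1 of the 20°C libraries left out, 23.4% to 46.8% lay above, beside 13.7% to 18.5% of all genes.

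The largest log2 fold change of the list was that of *dnj-7*, a DNAJ co-chaperone whose mammalian relative works in the ER and not in the cytosol. It had 997 counts at 25°C in N2 and 1068 in *clk-2*, against 690 and 638 in N2 and 774 and 636 in *clk-2* at 20°C (log2 fold change 0.60, SE 0.13, limma adjusted p = 0.533). *unc-45*, the myosin chaperone, differed by 0.33 and *cct-3* by 0.29. *hsf-1* itself had a log2 fold change of -0.02 (SE 0.13). Of 6 mitochondrial chaperone genes, 0 lay beyond both 20°C libraries in both strains in either direction. *hsp-6* (mitochondrial HSP70) differed by 0.02 and *hsp-60* by -0.05.

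Among the other genes higher at 25°C, 8 with gene names met the 2-fold thresholds at 50 counts or more, and none passed the limma test after adjustment. *anmt-3*, an amine N-methyltransferase gene, had 782 counts at 25°C in N2 and 723 in *clk-2*, against 276 and 340 in N2 and 362 and 352 in *clk-2* at 20°C (log2 fold change 1.18, SE 0.16, limma adjusted p = 0.111). *ckb-2*, a choline kinase gene, had 283 and 269 counts in N2 and *clk-2* at 25°C, against 85.6 and 122 in N2 and 150 and 91.3 in *clk-2* at 20°C (1.33, SE 0.26, limma adjusted p = 0.361). In both genes the strains stood at about the same level and no 20°C library reached those at 25°C.

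In others, 1 strain carried most of the difference. *catp-3*, a cation-transporting ATPase gene, had 1004 counts at 25°C in N2 and 2572 in *clk-2*, against 757 and 823 in N2 and 624 and 697 in *clk-2* at 20°C, with differences of 0.35 in N2 and 1.96 in *clk-2*. *cyp-37B1*, a cytochrome P450 gene, differed by 0.65 in N2 and 1.97 in *clk-2*, and *shc-3*, an adaptor protein gene, by 0.83 and 1.20. The saposin-like gene *spp-9* had 310 counts in *clk-2* at 25°C, against 38.8 and 123 in *clk-2* at 20°C, and in N2 it had 1 read at 25°C and 0 at 20°C.

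The *pals* genes belong to the intracellular pathogen response, a program against microsporidia and viruses that prolonged heat also induces. Of 31 list members tested, 8 lay above both 20°C libraries in each strain (25.8%, beside 10.8%) and 0 below. By the 2-fold thresholds 3 were higher, *pals-6*, *pals-2* and the F-box gene *fbxa-182*, and 0 lower, beside 0.306% and 0.721% of all genes. *pals-6* had 9.13 counts at 25°C in N2 and 413 in *clk-2*, against 2.1 and 0.781 in N2 and 202 and 127 in *clk-2* at 20°C (log2 fold change 1.73, SE 0.39, limma adjusted p = 0.533). *fbxa-182* had 65.6 and 319 counts in N2 and *clk-2* at 25°C, against 21 and 29.7 in N2 and 192 and 135 in *clk-2* at 20°C (1.17, SE 0.26).

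*pals-6*, *pals-2* and *fbxa-182* stood higher in *clk-2* than in N2 at both temperatures. The list's median difference was 0.50 in *clk-2*, with 30 of 31 above 0, and 0.00 in N2, with 15 of 31 above 0. Of all 13727 genes tested, 7080 were above 0 in *clk-2* and 6927 in N2. *pals-14* had 890 counts in *clk-2* and 7.47 in N2 at 25°C, against 505 and 257 in *clk-2* and 8.42 and 14.1 in N2 at 20°C. *pals-24* differed in opposite directions, with 1241 counts in *clk-2* and 236 in N2 at 25°C, against 852 and 605 in *clk-2* and 607 and 799 in N2 at 20°C. The same held for *pals-23*, with differences of 0.21 in *clk-2* and -1.68 in N2.

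Among the groups more often lower than higher at 25°C in both strains were detoxification enzymes, secreted defence proteins and proteases of the intestine. Of 146 cytochrome P450, UDP-glucuronosyltransferase and glutathione S-transferase genes tested, 46 lay below both 20°C libraries in each strain (31.5%, beside 11.4%) and 14 above (9.59%, beside 10.8%). By the 2-fold thresholds 13 of the 99 lower genes and 1 of the 42 higher genes, *cyp-37B1*, were of this list. The median log2 fold change was -0.20. With any 1 of the 20°C libraries left out, 50 to 59 lay below and 16 to 23 above (23 without N2 replicate 2, 22 without *clk-2* replicate 1), beside 14.7% to 17.2% of all genes below and 13.7% to 18.5% above.

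Of those 13, 7 were genes of the *cyp-35* family, intestinal P450s known for their response to foreign chemicals and for a part in fat storage. The family was singled out after its values were seen. Of 9 *cyp-35* genes tested, 8 lay below both 20°C libraries in each strain (88.9%, beside 11.4% of all genes). The ninth, *cyp-35A2*, did so in *clk-2* only. *cyp-35A3* had 29.1 counts at 25°C in N2 and 228 in *clk-2*, against 102 and 132 in N2 and 676 and 557 in *clk-2* at 20°C (log2 fold change -1.69, SE 0.22, limma adjusted p = 0.0996). *cyp-35B2* had 1.66 and 20.5 counts in N2 and *clk-2* at 25°C, against 14.7 and 11.7 in N2 and 150 and 80.4 in *clk-2* at 20°C (-2.39, SE 0.37, limma adjusted p = 0.160). The *cyp-35* genes stood higher in *clk-2* than in N2 at both temperatures.

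*cyp-35A5* had 42.3 and 255 counts in N2 and *clk-2* at 25°C, against 80.7 and 105 in N2 and 557 and 534 in *clk-2* at 20°C, with log2 differences of -1.10 in N2 and -1.09 in *clk-2*. *cyp-35A4* had a log2 fold change of -1.36, *cyp-35B1* of -1.43 and *cyp-35D1* of -1.21. Several of these lie side by side on chromosome V. *cyp-35A5*, *cyp-35B1* and *cyp-35B2* follow each other with gaps of 434 and 922 bases, and *cyp-35A3* and *cyp-35A4* are 7136 bases apart. They are similar in sequence, so reads could be shared unevenly among them.

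Secreted defence genes were also lower at 25°C more often than higher. Of 105 C-type lectin and lysozyme genes tested, 24 lay below both 20°C libraries in each strain (22.9%, beside 11.4%) and 7 above (6.67%, beside 10.8%). By the 2-fold thresholds 7 were lower and 0 higher, beside 0.721% and 0.306% of all genes. With any 1 of the 20°C libraries left out, 25 to 35 lay below (23.8% to 33.3%, beside 14.7% to 17.2% of all genes) and 8 to 14 above. The 14 (13.3%, beside 18.5%) came without N2 replicate 2, and 11 (10.5%, beside 17.7%) without *clk-2* replicate 2. *clec-206* had 4.15 counts at 25°C in N2 and 17.6 in *clk-2*, against 21.7 and 29.7 in N2 and 88.0 and 63.7 in *clk-2* at 20°C (log2 fold change -2.19, SE 0.33, limma adjusted p = 0.142). *clec-71* had a log2 fold change of -1.37. The invertebrate lysozyme genes *ilys-2* and *ilys-3*, which are neighbours on chromosome IV (gap 2234 bases), had -1.62 and -1.58. For *ilys-3*, N2 held 1 read at 25°C, against 6 and 21 at 20°C. *lys-7* was among the 7 that lay above.

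Another neighbouring pair on chromosome IV, *thn-1* and *thn-2* (gap 2269 bases), encodes thaumatin-like proteins that pathogens are known to induce. *thn-1* had 19.1 counts at 25°C in N2 and 67.3 in *clk-2*, against 106 and 61.7 in N2 and 277 and 213 in *clk-2* at 20°C (log2 fold change -1.93, SE 0.28, limma adjusted p = 0.142). *thn-2* had 373 and 395 counts in N2 and *clk-2* at 25°C, against 911 and 625 in N2 and 1206 and 1083 in *clk-2* at 20°C (-1.27, SE 0.19). Neither gene's temperatures overlapped within a strain. *irg-4*, an infection response gene, had a log2 fold change of -1.21.

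Of 19 aspartic and cysteine protease genes of the intestine, which digest bacterial food, 9 lay below both 20°C libraries in each strain (47.4%, beside 11.4%) and 0 above. *asp-13* had 1039 counts at 25°C in N2 and 878 in *clk-2*, against 1795 and 1939 in N2 and 1675 and 1757 in *clk-2* at 20°C (log2 fold change -0.90, SE 0.11, limma adjusted p = 0.0996). *cpr-5* had 5529 and 3717 counts in N2 and *clk-2* at 25°C, against 7374 and 7005 in N2 and 6000 and 5490 in *clk-2* at 20°C (-0.50, SE 0.11). Of 9 general intestinal marker genes, 4 lay below in both strains (44.4%, beside 11.4%) and 0 above. Their summed level was 34240 at 25°C in N2 and 40041 in *clk-2*, against 33286 and 40734 in N2 and 47126 and 45437 in *clk-2* at 20°C. In whole animals, fewer cells of a type and less RNA per cell cannot be told apart.

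Among the single genes with the lowest log2 fold changes at 50 counts or more were a pair that code for enzymes of fatty acid breakdown, a class for which no list was counted. *acs-2*, a mitochondrial acyl-CoA synthetase gene, had 677 counts at 25°C in N2 and 46.8 in *clk-2*, against 1399 and 1384 in N2 and 129 and 120 in *clk-2* at 20°C (log2 fold change -1.22, SE 0.16, limma adjusted p = 0.0996). *acdh-2*, an acyl-CoA dehydrogenase gene, had 937 and 129 counts in N2 and *clk-2* at 25°C, against 2581 and 2232 in N2 and 401 and 266 in *clk-2* at 20°C (-1.35, SE 0.18, limma adjusted p = 0.111). Both genes stood far lower in *clk-2* than in N2, and lay below both 20°C libraries in each strain. The log2 difference was -1.04 in N2 and -1.39 in *clk-2* for *acs-2*, and -1.36 in N2 and -1.34 in *clk-2* for *acdh-2*.

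The 5 enzymes of the propionate shunt, which breaks down propionate when the vitamin B12 route is not used, were looked up after *hphd-1* and *ech-6* had been seen. All 5 lay below both 20°C libraries in each strain (100%, beside 11.4% of all genes), with a median log2 fold change of -0.49. *hphd-1* had 2426 counts at 25°C in N2 and 1168 in *clk-2*, against 3485 and 3201 in N2 and 2143 and 1982 in *clk-2* at 20°C (-0.64, SE 0.13). *ech-6* differed by -0.54, *hach-1* by -0.49, *acdh-1* by -0.45 and *alh-8* by -0.35. Of the nuclear receptor genes tied to these pathways, *nhr-49* differed by -0.06 and *nhr-68* by -0.09.

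Other named genes past the 2-fold thresholds downwards were *paf-2*, a platelet-activating factor acetylhydrolase gene, and *pgp-9*, an ABC transporter gene, with the F-box gene *fbxa-24*. *paf-2* had 78.0 counts at 25°C in N2 and 29.3 in *clk-2*, against 215 and 195 in N2 and 75.1 and 76.5 in *clk-2* at 20°C (log2 fold change -1.36, SE 0.21). *pgp-9* had 240 and 457 counts in N2 and *clk-2* at 25°C, against 1033 and 964 in N2 and 683 and 672 in *clk-2* at 20°C, with a larger difference in N2 (-2.05) than in *clk-2* (-0.57). *fbxa-24* differed by -0.75 in N2 and by -2.05 in *clk-2*, where it held 4 reads at 25°C.

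**Figure D3:**
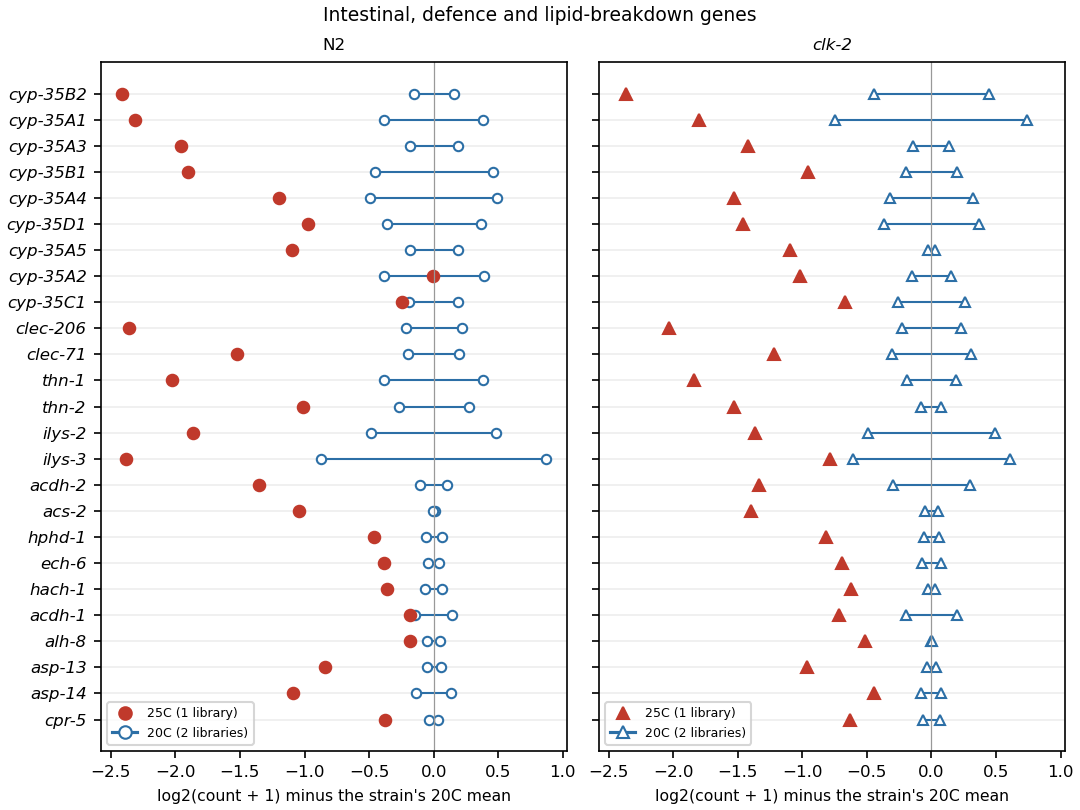
log2(count + 1) of 25 genes lower at 25°C, less the mean of the strain's own 20°C libraries, in N2 (left) and *clk-2* (right), from *cyp-35* genes at the top through lectin, thaumatin and lysozyme genes to lipid-breakdown and protease genes at the bottom. Filled red symbols (25°C, 1 library) lie left of both open blue symbols (20°C, 2 libraries) except for *cyp-35A2* in N2.

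Of 80 cytosolic ribosomal protein genes, 28 lay below both 20°C libraries in each strain (35%, beside 11.4%) and 0 above. The differences were small, with a median log2 fold change of -0.12, and were nearer 0 in N2 (-0.01) than in *clk-2* (-0.27). The summed level was 969250 at 25°C in N2 and 651740 in *clk-2*, against 946530 and 1012000 in N2 and 760570 and 760600 in *clk-2* at 20°C, so the sum separated the temperatures in *clk-2* alone. With a 20°C library left out, 28 to 43 lay below (35% to 53.8%, beside 14.7% to 17.2% of all genes). Above lay 0 to 11 (0% to 13.8%, beside 13.7% to 18.5%). The 43 came without N2 replicate 1 and the 11 without *clk-2* replicate 1. The lowest log2 fold change was that of *rps-21*, with 885 and 547 counts in N2 and *clk-2* at 25°C, against 2235 and 2424 in N2 and 696 and 1557 in *clk-2* at 20°C (log2 fold change -1.16, SE 0.29, limma adjusted p = 0.645).

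Over all genes, opposite differences in the strains were more frequent than shared ones. The log2 differences of N2 and *clk-2* had a Pearson r of -0.08 across 13727 genes, given as a description since genes are not independent and each strain's difference rests on 1 library at 25°C. Both 25°C libraries lay above their 20°C libraries for 1481 genes (10.8%) and below them for 1568 (11.4%). In 2113 genes (15.4%) the 25°C library lay below in N2 and above in *clk-2*, and in 1753 (12.8%) above in N2 and below in *clk-2*. The N2 library at 25°C differed 2-fold or more in 844 genes from N2 replicate 1 at 20°C and in 1131 from replicate 2, and those replicates differed so from each other in 854 genes. For *clk-2* the counts were 1110 and 1116 against the 20°C replicates, and 638 between these.

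**Figure D4:**
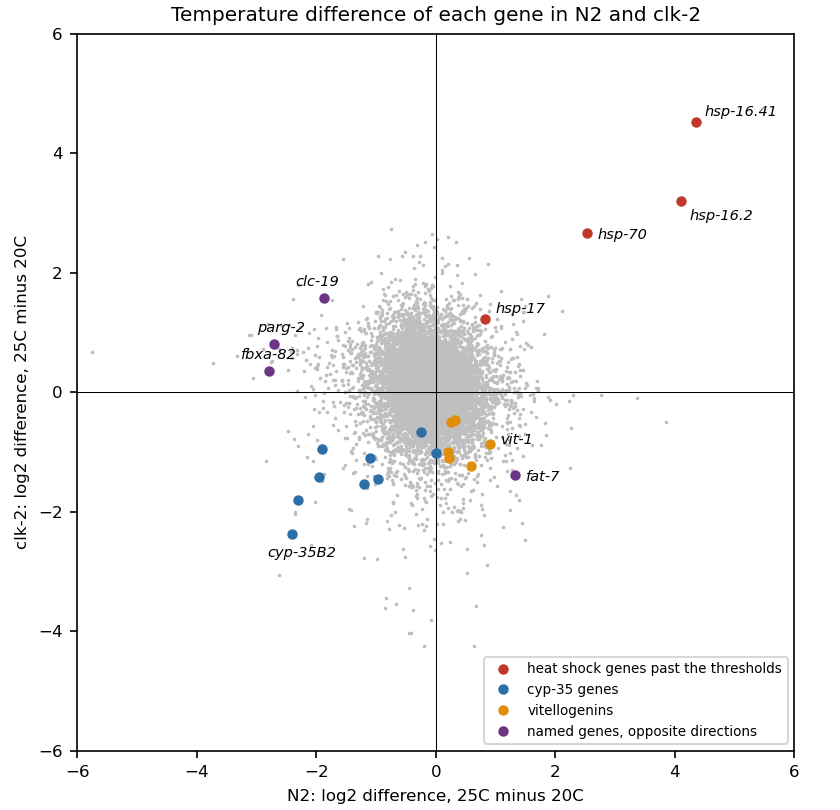
Each gene's log2 difference, 25°C minus the mean of 20°C, in N2 (x axis) and *clk-2* (y axis), with all 13727 genes in grey. The 4 heat shock genes in red lie in the upper right, the *cyp-35* genes in blue in the lower left or at 0 in N2, and the vitellogenin genes in orange to the right of 0 in N2 and below 0 in *clk-2*.

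The medians of yolk and oocyte genes differed with temperature in opposite directions in the strains. The vitellogenin genes, which make yolk protein in the adult intestine, had a median difference of 0.28 in N2, with 6 of 6 above 0, and -0.93 in *clk-2*, with 0 of 6 above 0. *vit-2* had 34764 counts at 25°C in N2 and 16872 in *clk-2*, against 30031 and 26060 in N2 and 23796 and 22833 in *clk-2* at 20°C. *vit-1* differed by 0.91 in N2 and -0.86 in *clk-2*. Of 23 oocyte genes, 22 were above 0 in N2 (median 0.40) and 2 in *clk-2* (median -0.28), those 2 being *oma-1* and *mei-2*. Among all 13727 genes tested, 6927 were above 0 in N2 and 7080 in *clk-2*. The summed oocyte level was 77138 at 25°C in N2, against 68223 and 55546 at 20°C. In *clk-2* it was 59242 at 25°C, against 61451 and 83563 at 20°C. In both strains the 20°C libraries differed by more than the 25°C library lay past the nearer one. *rme-2*, the yolk receptor of oocytes, differed by 0.30 in N2 and -0.30 in *clk-2*. It had 6980 and 5531 counts in N2 and *clk-2* at 25°C. At 20°C it had 6731 and 4803 in N2 and 5757 and 8040 in *clk-2*.

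In their medians, fatty acid desaturases and elongases followed the same division. Of 11 genes, 11 were above 0 in N2 (median 0.53) and 4 in *clk-2* (median -0.10). For all 13727 genes tested these counts were 6927 in N2 and 7080 in *clk-2*. Of the 11, 3 lay above both 20°C libraries in each strain (27.3%, beside 10.8%) and 0 below (beside 11.4%). *fat-5*, a desaturase of palmitic acid, was above both 20°C libraries in each strain, with 316 counts at 25°C in N2 and 281 in *clk-2*, against 95.4 and 173 in N2 and 158 and 227 in *clk-2* at 20°C (log2 fold change 0.93, SE 0.30, limma adjusted p = 0.950). *fat-6*, which makes oleic acid, had 3843 and 2596 counts in N2 and *clk-2* at 25°C, against 1576 and 2040 in N2 and 2744 and 2315 in *clk-2* at 20°C. It thus separated the temperatures in N2 and not in *clk-2*.

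*fat-7*, the partner of *fat-6* and known to be induced by cold, had 756 counts at 25°C in N2 and 237 in *clk-2*, against 238 and 380 in N2 and 802 and 475 in *clk-2* at 20°C. The differences were 1.33 in N2 and -1.38 in *clk-2*. *elo-5* and *elo-6*, elongases of branched-chain fatty acids, had differences of 1.11 and 0.98 in N2 and of -0.10 and -0.13 in *clk-2*. *fat-1* and *fat-2* were slightly above both 20°C libraries in each strain (0.22 and 0.29), and *fat-3* and *fat-4* differed by -0.12 and 0.16.

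The largest opposite responses at 50 counts or more were in *parg-2*, *clc-19* and *fbxa-82*, all lower in N2. *parg-2*, a poly(ADP-ribose) glycohydrolase gene, had 154 counts at 25°C in N2 and 111 in *clk-2*, against 1030 and 997 in N2 and 77.7 and 51.4 in *clk-2* at 20°C. The N2 level thus came near that of *clk-2*. *clc-19*, a claudin-like gene, had 50.6 and 96.6 counts in N2 and *clk-2* at 25°C, against 147 and 240 in N2 and 28.5 and 35.4 in *clk-2* at 20°C. *fbxa-82*, an F-box gene, had 16.6 and 46.8 counts in N2 and *clk-2* at 25°C, against 99.6 and 146 in N2 and 38.8 and 34.1 in *clk-2* at 20°C.

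Markers of developmental stage varied among libraries of 1 temperature. The summed level of 13 molting genes was 2279 at 25°C in N2 and 7144 in *clk-2*, against 2039 and 4914 in N2 and 10426 and 6394 in *clk-2* at 20°C. *noah-1*, a cuticle protein gene, had 171 counts at 25°C in N2 and 904 in *clk-2*, against 65.9 and 632 in N2 and 1750 and 992 in *clk-2* at 20°C. The 25°C library of N2 lay between its 20°C libraries, nearer replicate 1. The summed major sperm protein level was 23544 at 25°C in N2 and 8390 in *clk-2*, against 23254 and 29909 in N2 and 6660 and 6833 in *clk-2* at 20°C. The part of stage in the strain differences of yolk, oocyte and desaturase genes was not tested.

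**Figure D5:**
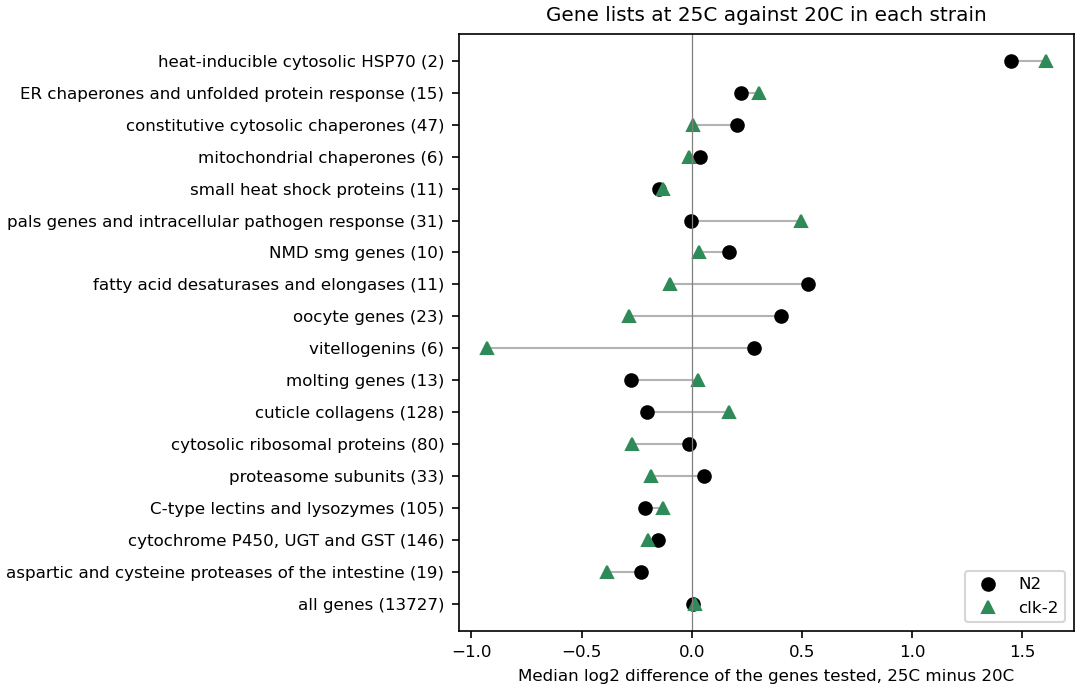
Median log2 difference, 25°C minus 20°C, of the tested genes of 17 lists and of all genes (numbers of genes in brackets), in N2 (black circles) and *clk-2* (green triangles), joined by a line. The symbols lie together on the right for inducible HSP70 and ER chaperones and on the left for P450, lectin and protease genes, and lie on opposite sides of 0 for vitellogenins, oocyte genes and desaturases.

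The study moved animals to 25°C for the sake of *clk-2*, whose human relative TELO2 works in the assembly of kinases such as SMG1 of NMD. *clk-2* mRNA had 589 counts at 25°C in N2 and 620 in *clk-2*, against 598 and 485 in N2 and 497 and 670 in *clk-2* at 20°C (log2 fold change 0.12, SE 0.17, limma adjusted p = 0.953). The temperatures overlapped in both strains, and since the alleles act on the protein, this level does not check the labels. Of 10 *smg* genes of NMD, 3 lay above both 20°C libraries in each strain (30%, beside 10.8% of all genes) and 0 below (beside 11.4%), with a median log2 fold change of 0.11, beside 0.02. *smg-5* had 333 and 579 counts in N2 and *clk-2* at 25°C, against 255 and 254 in N2 and 528 and 497 in *clk-2* at 20°C.

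NMD targets were taken as the 809 genes more than 2-fold higher in both *smg-1* and *smg-2* mutants than in N2 at 20°C (limma, unadjusted p under 0.05), of which 684 were tested here. Of these, 7 met the 2-fold thresholds upwards (1.02%, beside 0.306% of all genes) and 7 downwards (1.02%, beside 0.721%), and 93 lay above (13.6%, beside 10.8%) and 72 below (10.5%, beside 11.4%) in both strains. The median difference with temperature was 0.18 in *clk-2*, with 441 above 0, and -0.05 in N2, with 311 above 0. Over all 13727 genes it was 0.013 in *clk-2*, with 7080 above 0, and 0.0044 in N2, with 6927 above 0. The *clk-2* libraries had no part in choosing these genes, and the N2 libraries at 20°C did. The summed level was 128420 in *clk-2* at 25°C, against 113840 and 108860 in *clk-2* at 20°C, and 85535 in N2 at 25°C, against 91086 and 92117 in N2 at 20°C. The difference between the strains was not tested.

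Depth differed among the 6 libraries. The *clk-2* library at 25°C held 3051836 reads and *clk-2* replicate 1 at 20°C 3523986, and the other 4 held 11637545 to 14209955. A single read was worth 2.93 normalized counts in the *clk-2* library at 25°C and 0.643 to 0.830 in the deeper ones, so values of a few counts in *clk-2* rest on 1 or 2 reads. Markers of intestine, muscle, hypodermis, neurons, germline, oocytes and sperm were present in every library, as whole animals have them.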

How the data were processed

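RNA of whole animals was sequenced after rRNA depletion. Per the study's methods and the labels' processing notes, the authors aligned reads to WBcel235 with STAR 2.5.4a, allowing at most 3 mismatches and unique hits only, with exonic reads then counted for each protein-coding gene; the strand setting is not given in the sources used here. The deposited values are normalized counts, a signal equal to reads divided by 1 size factor per library. Within 0.001, 100% of the values were whole reads of their library. The table held 0 unused sample columns. Of the 13727 genes tested, the WBcel235 annotation used here gave 13456 as protein-coding and 154 as pseudogenes. By it the table was not limited to protein-coding genes.

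Values were tested as log2(value + 1) with limma 3.58.1 (R 4.3.3; eBayes with trend, strain and temperature terms, 3 residual degrees of freedom), over genes with a mean of at least 10, with Benjamini-Hochberg adjustment. The strain differences are 25°C minus the mean of 20°C, on the same scale, which understates changes of low genes. edgeR 4.0.16 and DESeq2 1.42.0 on the recovered reads, other pseudocounts and filters, quantile normalization, thinned reads, all 10 libraries, a replicate block and leaving out each library were alternatives. Leaving out libraries from the counts of list members was added after seeing the data. The limma code was tested on simulated data.

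Named genes were the 12 with the largest absolute log2 fold change each way that had a gene name, a mean of at least 50 in the higher group and 25°C libraries beyond both 20°C libraries in each strain, those called first and then those past the 2-fold thresholds; all members of the heat shock and desaturase lists; *clk-2*; and the 3 largest opposite responses. Other genes are named as list members or were chosen after their values were seen. The comparison, the genes and the 34 lists were chosen with earlier results of these data known. Gene positions and names are those of the WBcel235 annotation, which named 14720 of the 15106 genes.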

Additional observations from a re-analysis of the deposited data

Results flagged for a closer look

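In each of the following, every library at 25°C moved one way in N2 and the other way in *clk-2* relative to both 20°C libraries of the strain. With 1 library per strain at 25°C the difference between the strains was not tested. Values are the log2 difference at 25°C in N2 minus that in *clk-2*. Among single genes they were -3.52 for *parg-2*, -3.45 for *clc-19* and -3.14 for *fbxa-82*. For the pathogen response genes *pals-24*, *pals-23* and *pals-14* they were -2.35, -1.90 and -1.79. In the other direction they were 2.70 for *fat-7*, 1.78 for *vit-1*, 1.21 for *elo-5*, 1.11 for *elo-6* and 0.991 for *sip-1*. Between list medians the value was 1.21 for the vitellogenins, 0.687 for the oocyte genes and 0.627 for the fatty acid desaturases and elongases, whose summed levels lay above both 20°C libraries in N2 and below both in *clk-2*. The oocyte sums lay past the nearer 20°C library by less than the 20°C libraries of the strain differed.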

How the results depend on the processing

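Against 1 gene called higher and 0 lower by limma, there were 42 and 99 past the 2-fold thresholds, 6 and 15 with all 10 libraries in one fit, 10 and 48 with DESeq2, and 2 higher and 0 lower with edgeR; leaving out 1 library gave 0 to 1 higher and 0 to 19 lower. Against 42 higher by the 2-fold thresholds, a pseudocount of 10 gave 12, a mean of at least 100 gave 10, DESeq2 18 and leaving out 1 library 34 to 294. Against 99 lower, they gave 30 with a pseudocount of 10, 20 with a mean of at least 100, 177 with no filter and 67 to 282 with 1 library left out. Fits without a 25°C library rest on 1 strain and assume that the lone library varies like the others. They cannot apply the same-sign rule, so their counts are not given here. For all of these the cause was not tested.

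With a replicate block, which only the 20°C libraries can inform, limma called 0 genes higher and 0 lower, and 72 and 92 met the 2-fold thresholds. The labels do not say that a number marks a shared batch. The differences between replicates 1 and 2 of N2 and of *clk-2* had a Pearson r of -0.27 across genes. A correlation across genes cannot tell whether a batch was shared, so this was not settled.

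Signs turned in the genes given here. Limma had called none of them, but it had called only *hsp-16.41*. *fat-7* had log2 fold changes of 0.22 with edgeR, 0.12 with DESeq2 and -1.38 to 1.33 with 1 library left out, *hsp-12.1* -0.16 with edgeR, -0.11 with DESeq2 and -0.33 to 0.59 with 1 library left out, and *clc-19* 0.14 with DESeq2, 0.10 with a replicate block and -1.87 to 1.58 with 1 library left out. The other ranges with 1 library left out were -2.71 to 0.81 for *parg-2*, -2.79 to 0.36 for *fbxa-82*, -0.16 to 0.83 for *sip-1*, -0.048 to 0.37 for *fat-4*, -2.52 to 0.079 for *hsp-12.6* and -0.27 to 0.026 for *fat-3*, each without the 25°C library of 1 strain or the other. Over the single genes named by the rule, 640 of the alternative values kept their sign and their side of the threshold, 25 came to pass it and 2, both of *hsp-16.41*, no longer did. A further 19 alternative values turned sign. At 3051836 reads, the *clk-2* library at 25°C limits what can be seen in genes of a few counts.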
